A study of Mus musculus with 8 samples.

Results

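The genes described here are the potassium channel genes of the mouse cerebellum, chosen as all rows of the 8 deposited count tables whose gene name starts with Kcn and whose mean level over the 8 libraries was at least 1 CPM, the gene's counts scaled to a common library total. This rule kept 74 of the 91 rows with such a name, out of 17700 genes listed, and did not use age or sex. The 74 members comprised 15 voltage-gated genes of the Kcna to Kcnd families, 12 inward rectifiers (Kcnj), 10 two-pore-domain genes (Kcnk), 3 small-conductance calcium-activated genes (Kcnn), 4 Kcnq genes and 30 others. Counted by role, 60 encode pore-type subunits and 14 encode auxiliary proteins (Kcnab, Kcne, Kcnip, Kcnmb and Kcnrg). The study sequenced total RNA, depleted of ribosomal RNA, from the cerebellum of C57BL/6JN mice, an inbred strain. The young group held 4 mice, 3 aged 19 weeks and 1 aged 22 weeks, and the old group held 4 mice aged 83, 83, 93 and 102 weeks. Each group had 2 males and 2 females, and the labels name no treatment or transgene in either group. Liver and different ages stand in the design text of the series, and the labels of the single samples were followed instead.

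Potassium channels let potassium leave or enter a cell along its gradient and so set the resting potential, end the action potential and pace repetitive firing. Pore subunits assemble as tetramers, or as dimers in the two-pore-domain family, and silent or auxiliary subunits alter where the pore goes and how it opens. In the cerebellum, Kcnc channels are known for the short action potentials of fast-firing Purkinje cells, Kcna1 and Kcna2 for basket cell terminals and axons, Kcnd2 for the fast transient current of granule cells, Kcnk9 for their standing leak current, and Kcnj10 for potassium uptake by Bergmann glia and other glia.

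Each library held between 6079485 and 7236720 counts, and the members took 0.818% to 0.929% of them. Marker genes of granule neurons, Purkinje cells, molecular layer interneurons, Bergmann glia and oligodendrocytes had counts in every library. Liver markers summed to 0.682 to 84.2 CPM, and 6 of the 7 were at 0 in at least 1 library. Choroid plexus markers, which belong to a tissue inside the adjoining ventricle, summed to 82.5 to 1627 CPM. All levels below are CPM scaled by TMM, edgeR's correction of library totals. In bulk tissue, fewer cells of a type and less RNA per cell cannot be told apart.

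The members nearest the CPM minimum were low in all respects, and the values in this paragraph are CPM on unscaled totals. Just above it stood Kcnj5 at 1.27, Kcnj4 at 1.30, Kcnh3 at 1.48, Kcnt2 at 1.68 and Kcnv2 at 1.90. Just below it stood Kcnk15 at 0.900, Kcng3 at 0.848, Kcng1 at 0.813, Kcnv1 at 0.725 and Kcnj14 at 0.690, which are not members. All 74 members had enough counts to be tested for age and sex.

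To compare levels between genes, CPM was divided by the length of each gene's exons in kb. On this scale the lowest mean level was 0.244 CPM per kb, for Kcnt2, a sodium-activated channel. Few genes carried most of the total: the 5 highest members held 34.2% of the members' summed CPM per kb, the 10 highest 57.4% and the 20 highest 78.2%. The Kcna to Kcnd families made up 40.6% ± 1.05 (SD, n = 8) of that sum, the inward rectifiers 21.8% ± 0.479, the two-pore-domain genes 12.7% ± 1.07, the Kcnq genes 1.88% ± 0.166, the Kcnn genes 0.717% ± 0.0873 and the other families 22.3% ± 1.60. These shares varied little between libraries.

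Among the highest members were Kcna2 at 98.9 ± 7.03, Kcna1 at 92.9 ± 11.4, Kcnj10 at 88.6 ± 14.4, Kcnd2 at 88.0 ± 12.1 and Kcnk1 at 86.0 ± 8.61 CPM per kb (SD, n = 8 each). From one to the next these 5 genes differed by less than 1 SD over the libraries, and their order among themselves was not tested. They include pores for axonal repolarisation (Kcna1, Kcna2), the granule cell transient current (Kcnd2), glial potassium uptake (Kcnj10) and leak (Kcnk1). Below them stood Kcnc1 at 69.0 ± 11.7, Kcnj9 at 59.4 ± 9.54, Kcng4 at 53.2 ± 7.03 and Kcnj3 at 52.1 ± 5.27 CPM per kb, where Kcnj9 and Kcnj3 are G protein-gated inward rectifiers and Kcng4 is a silent subunit that modifies Kcnb channels. In the calcium-activated families the leading genes were Kcnma1, the large-conductance channel, at 30.7 ± 2.58, and Kcnn2, the small-conductance channel, at 5.32 ± 0.765.

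**Figure D1:**
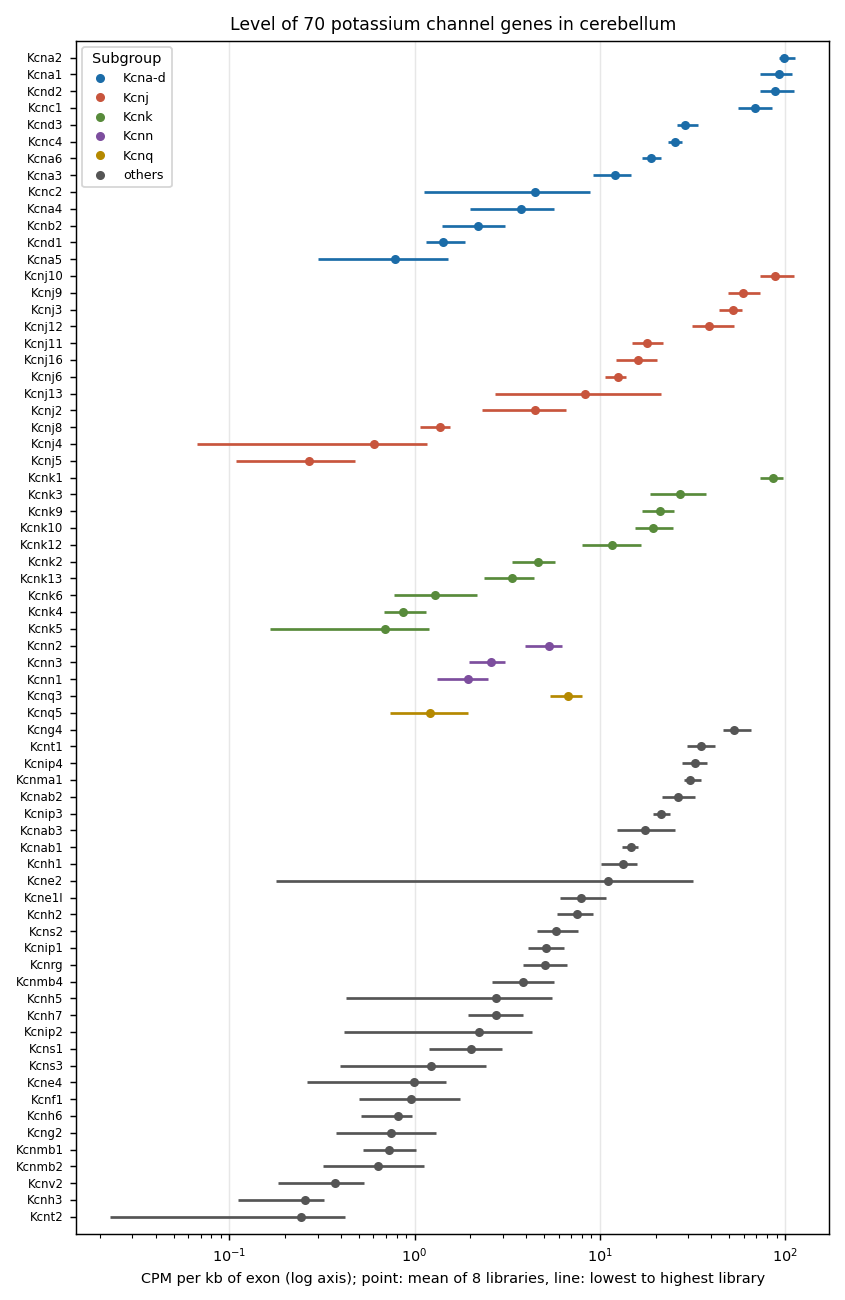
Mean level of 70 members in CPM per kb of exon on a log axis (point), with the lowest and highest of the 8 libraries (line), coloured by subgroup. The lowest level is 0.244 (Kcnt2) and the highest drawn is 98.9 (Kcna2), and the widest lines belong to low genes and to Kcne2 and Kcnj13.

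Old and young animals were compared with edgeR's quasi-likelihood test, with sex in the model and Benjamini-Hochberg adjustment across the 14191 genes tested. None of the 74 members passed an adjusted p of 0.05, where 0.120% of all genes tested did, and the smallest adjusted p of a member was 0.357. At an unadjusted p under 0.05 there were 5 members (Kcnab3, Kcna1, Kcnj6, Kcnb2 and Kcnrg), against 11.0% of all genes. DESeq2 and limma-voom also called no member, where they called 125 and 1 of the 14191 genes tested. With a granule neuron score in the model, which is the median deviation of the marker genes' log2 CPM from their means, 1 member, Kcnab3, passed, at a log2 fold change of -0.56 ± 0.09 (SE) and an edgeR adjusted p of 0.0205, where 0.747% of all genes tested passed. In that fit 14 members had an unadjusted p under 0.05, against 14.1% of all genes.

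The log2 fold changes, old minus young, were negative for 54 members and positive for 20, so that 27.0% were positive, against 48.6% of all genes tested. Their median was -0.10, against -0.01 over all genes, and they ran from -0.93 (Kcnip2) to 1.11 (Kcne2). Most were small: 54 members lay within 0.25 of zero and 8 lay beyond 0.5, of which Kcnj13, Kcnk6, Kcnj5 and Kcne2 were positive and Kcnh5, Kcnj4, Kcnh3 and Kcnip2 negative. Scaled by unadjusted library totals, 27 of the 74 members were positive, with a median of -0.06. Of all genes tested 59.6% were positive under that scaling, with a median of 0.04. In the same direction, the members' summed level was 1277, 1341, 1409 and 1285 CPM per kb in the old libraries, numbered from old 1 to old 4, and 1516, 1383, 1413 and 1424 CPM per kb in the young libraries in the same order, and these ranges overlapped. Marker lists of neurons and glia leaned the same way: 12 of 13 granule neuron markers, 10 of 11 Purkinje cell markers, 7 of 8 interneuron markers, 8 of 10 Bergmann glia and astrocyte markers and 6 of 8 oligodendrocyte markers had negative log2 fold changes, with medians of -0.13, -0.13, -0.05, -0.15 and -0.17. All 8 microglia markers and all 10 choroid plexus markers had positive ones, with medians of 0.72 and 1.36, and summed microglia markers were 163 to 309 CPM in old and 106 to 143 CPM in young libraries. With the granule neuron score in the model the members' median was -0.12 with 22 positive, and with a choroid plexus score of the same kind it was -0.10 with 17 positive. The part of the other marker lists in the members' values was not tested.

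Pore-type and auxiliary members are described apart, and the difference between them was not tested. Of the 60 pore-type members 47 were negative, with a median of -0.10, and of the 14 auxiliary members 7 were negative, with a median of -0.04. All 4 Kcnc, all 3 Kcnd and all 4 Kcnip genes were negative, as were 5 of 6 Kcna genes, while all 3 Kcne genes were positive. By subgroup the negative members numbered 13 of 15 in Kcna to Kcnd (median -0.10), 9 of 12 in Kcnj (-0.15), 8 of 10 in Kcnk (-0.09), 2 of 3 in Kcnn (-0.01), 3 of 4 in Kcnq (-0.15) and 19 of 30 in the others (-0.09).

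**Figure D2:**
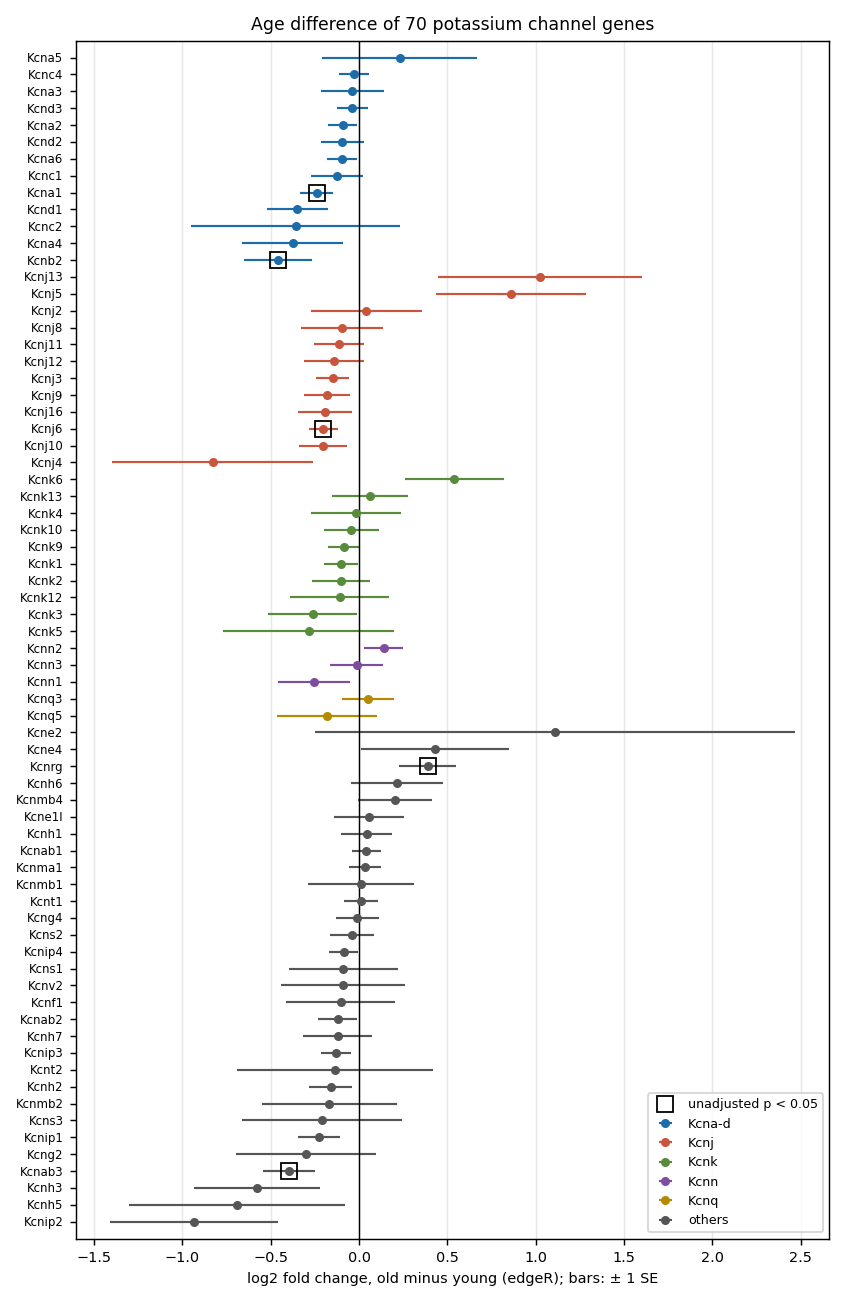
Log2 fold change of 70 members, old minus young, from edgeR (point) with 1 standard error to each side (bar), 4 libraries per group. Most points lie just left of zero, 51 of 70 being negative, and the wide bars belong to Kcne2, Kcnj13 and other genes that varied between libraries of the same age.

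Only 1 member, Kcnrg, had no overlap between the groups with old above young, where 3.15% of all genes tested had that pattern, and no member had all old values below all young values, where 3.42% of all genes did. Kcnrg encodes a soluble protein that interferes with the assembly of voltage-gated channels. It measured 12.2, 8.92, 11.0 and 9.78 CPM in old and 7.91, 7.06, 8.18 and 8.70 CPM in young libraries, given here and below in the order of their numbers. The lowest old library stood just above the highest young one. The means were 10.5 ± 1.43 and 7.96 ± 0.687 CPM (SD, n = 4 each), a log2 fold change of 0.39 ± 0.16 (SE) with an edgeR adjusted p of 0.415.

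Among the voltage-gated genes, Kcna1, whose channel repolarises axons and terminals, had 350, 406, 464 and 409 CPM in old and 521, 450, 459 and 494 CPM in young libraries. Old 3 alone reached into the young range. The log2 fold change was -0.24 ± 0.09 (SE), with an unadjusted p of 0.0262 and an adjusted p of 0.376 (edgeR). Its frequent partner in the same tetramers, Kcna2, had 1099, 1189, 1105 and 1167 CPM in old and 1202, 1206, 1350 and 1100 CPM in young libraries. Young 4 lay among the old values, and the log2 fold change was -0.09 ± 0.08. Kcnc1, a fast-spiking subunit, spanned 526 to 720 CPM in old and 552 to 807 CPM in young libraries, with -0.13 ± 0.15. Kcnd2, the transient-current subunit, spanned 377 to 488 and 408 to 575 CPM, with -0.10 ± 0.12. Granule neuron markers were themselves highest in young 4, at 7527 CPM summed, the library in which Kcnd2 was highest, and lowest in old 4, at 4494 CPM, the library in which Kcnd2 was lowest. Kcnc1 was lowest in old 4 as well but highest in young 1, at 807 CPM. Once the granule neuron score was in the model, the log2 fold changes of Kcnc1 and Kcnd2 were 0.07 and 0.05, those of Kcna1 and Kcna2 -0.18 and -0.13. Whether granule neuron content accounts for any of these values was not tested.

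Lower in the same families, Kcnb2, a delayed rectifier, had 36.3, 32.4, 21.2 and 23.2 CPM in old and 46.8, 39.0, 27.8 and 41.8 CPM in young libraries. Only young 3 lay below the highest old values. Its log2 fold change was -0.46 ± 0.19 (SE), with an unadjusted p of 0.0400 and an adjusted p of 0.427 (edgeR). Kcnd1, a further transient-current gene, had 6.42, 7.34, 6.13 and 6.63 CPM in old and 8.22, 8.62, 9.89 and 7.30 CPM in young libraries. Old 2 and young 4 nearly coincided, and the others were separate. The log2 fold change was -0.35 ± 0.17 with an edgeR adjusted p of 0.492.

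Among the inward rectifiers, Kcnj10 had 462, 400, 414 and 504 CPM in old and 482, 574, 601 and 394 CPM in young libraries. The groups overlapped, and young 4 held the lowest value of all. The log2 fold change was -0.20 ± 0.13 (SE) with an edgeR adjusted p of 0.620, or -0.35 with an edgeR adjusted p of 0.0592 with the granule neuron score in the model. Kcnj16, which pairs with Kcnj10 in glia and is named here after its values were seen, had a like value, -0.19 ± 0.15. Summed Bergmann glia and astrocyte markers ran from 5043 to 6276 CPM in old and from 5173 to 7146 CPM in young libraries.

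The G protein-gated subunits, which open on activation of inhibitory receptors, had log2 fold changes of one sign for the 3 neuronal genes. Kcnj6 had 88.2, 99.6, 87.1 and 81.7 CPM in old and 105, 97.7, 101 and 106 CPM in young libraries. Old 2 alone reached above the lowest young value, and the log2 fold change was -0.20 ± 0.08 (SE), with an unadjusted p of 0.0280 and an adjusted p of 0.384 (edgeR). Kcnj3 spanned 230 to 304 CPM in old and 267 to 299 CPM in young libraries, with -0.15 ± 0.09, and Kcnj9 spanned 212 to 299 and 229 to 314 CPM, with -0.18 ± 0.13. The fourth gene of the type, Kcnj5, best known from the heart, was near the limit of 3 counts, with 2.25, 0.863, 1.42 and 2.05 CPM in old and 1.24, 1.1, 0.511 and 0.702 CPM in young libraries. Its log2 fold change was 0.86 ± 0.42 with an edgeR adjusted p of 0.495, and 3 counts correspond to 0.421 to 0.511 CPM depending on the library.

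The two-pore-domain genes, which carry leak current, gave small differences. Kcnk1 had 164, 190, 217 and 170 CPM in old and 216, 195, 185 and 200 CPM in young libraries, with a log2 fold change of -0.10 ± 0.09. Kcnk9 had 270, 231, 295 and 213 CPM in old and 311, 280, 208 and 269 CPM in young libraries, with -0.08 ± 0.09. In both genes the groups overlapped across most of their range. Kcnk3, the acid-sensitive relative of Kcnk9, had 80.5, 103, 134 and 74.5 CPM in old and 141, 88.4, 90.2 and 148 CPM in young libraries. It was high in old 3, young 1 and young 4 alike, and the log2 fold change was -0.26 ± 0.25, or 0.04 with the granule neuron score in the model. Kcnk6, at 6.90, 4.75, 4.56 and 8.99 CPM in old and 3.88, 5.65, 4.60 and 3.23 CPM in young libraries, was the subgroup's largest positive value, 0.54 ± 0.28, with an edgeR adjusted p of 0.518 and overlapping groups.

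The Kcnn genes, which encode the small-conductance calcium-activated channels, showed no shared direction. Kcnn2 had 36.9, 41.3, 42.9 and 44.8 CPM in old and 29.6, 34.5, 46.9 and 40.8 CPM in young libraries, a log2 fold change of 0.14 ± 0.11. Kcnn3 had 31.6, 24.6, 22.0 and 29.2 CPM in old and 29.2, 32.0, 27.4 and 20.6 CPM in young libraries, with -0.01 ± 0.15. Kcnn1 had 6.10, 8.78, 6.76 and 10.9 CPM in old and 9.62, 11.4, 9.71 and 8.14 CPM in young libraries, with -0.26 ± 0.20. All 3 overlapped between the ages.

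Of the Kcnq genes, whose channels carry the M current that restrains repetitive firing, Kcnq3 had 113, 89.1, 83.6 and 117 CPM in old and 88.7, 118, 104 and 79.4 CPM in young libraries, with a log2 fold change of 0.05 ± 0.15. Its groups overlapped over nearly their whole range.

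Among the other families, 3 of the highest genes per length differed little by age. Kcng4 had log2 fold changes of -0.01 ± 0.12, Kcnt1, the sodium-activated channel, 0.01 ± 0.10, and Kcnma1 0.03 ± 0.09. Old libraries spanned 179 to 228, 308 to 360 and 503 to 582 CPM for these genes, and young libraries 175 to 248, 280 to 399 and 481 to 597 CPM. The groups overlapped in each gene.

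The auxiliary gene with the smallest p was Kcnab3, a beta subunit of Kcna channels. It had 53.3, 35.4, 38.4 and 44.8 CPM in old and 60.6, 73.4, 54.5 and 40.0 CPM in young libraries. Young 4 lay inside the old range, and the other young libraries lay above all old ones. The means were 43.0 ± 7.91 and 57.1 ± 13.9 CPM (SD, n = 4 each), with a log2 fold change of -0.40 ± 0.15 (SE), an unadjusted p of 0.0219 and an adjusted p of 0.357 (edgeR). The Kcnip genes encode calcium-binding subunits of Kcnd channels. Kcnip4, the highest of them per length, spanned 101 to 128 CPM in old and 107 to 137 CPM in young libraries, with -0.09 ± 0.08. Kcnip1 had 25.3, 30.4, 32.2 and 29.0 CPM in old and 35.8, 28.7, 32.7 and 39.6 CPM in young libraries, with -0.23 ± 0.12 and an edgeR adjusted p of 0.526.

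**Figure D3:**
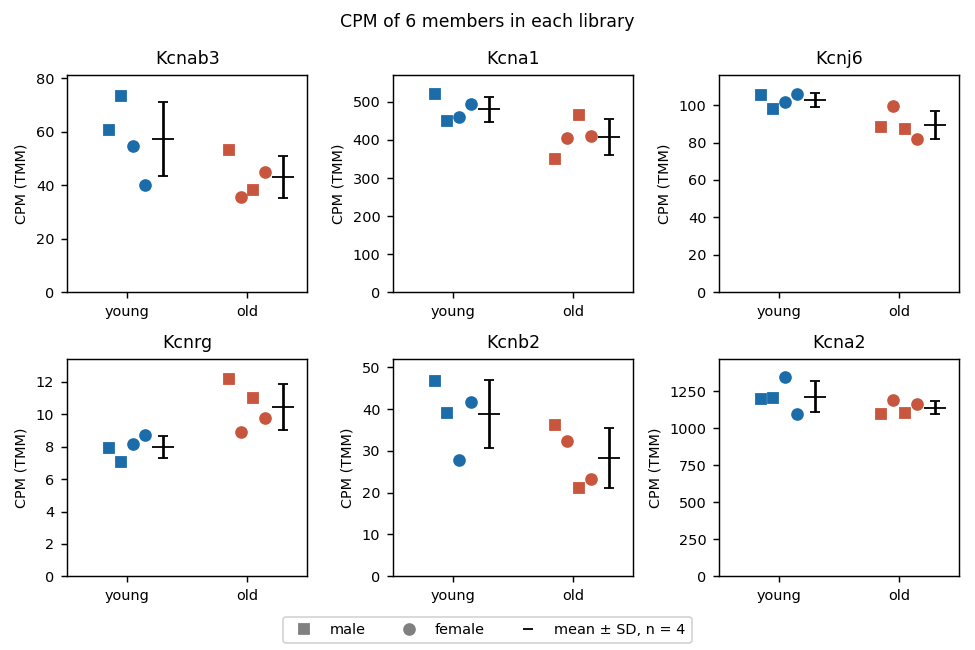
CPM of 6 members in each library (squares male, circles female) with the mean and SD of the 4 animals of each age beside them, each vertical axis starting at 0. In Kcnrg the ages do not overlap, and in Kcnab3, Kcna1, Kcnj6, Kcnb2 and Kcna2 at least 1 old library reaches the young range or the reverse.

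Several members varied far more between libraries of one age than between the ages. The 7 members with the widest spread of log2 CPM among those of at least 5 CPM, a rule set after the values were seen, were Kcne2, Kcnh5, Kcnip2, Kcnj13, Kcnc2, Kcna4 and Kcnj2. They fell into a pair that was high where choroid plexus markers were high, and 5 genes that were low in old 2, old 3 or young 4.

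The pair is Kcne2 and Kcnj13, which encode a beta subunit and an inward rectifier of the choroid plexus epithelium. Kcne2 had 29.0, 56.1, 0.314 and 18.1 CPM in old and 33.5, 17.6, 1.19 and 0.421 CPM in young libraries. Old 3 and young 4 were at or under 3 counts, and young 3 was barely above. Kcnj13 had 13.3, 27.3, 3.46 and 12.8 CPM in old and 8.06, 9.56, 6.31 and 3.65 CPM in young libraries, with the same 3 libraries lowest. Summed choroid plexus markers were 839, 1627, 105 and 723 CPM in old and 728, 526, 134 and 82.5 CPM in young libraries, lowest in those 3 libraries and highest in old 2, as both genes were. The log2 fold change was 1.11 ± 1.36 for Kcne2 (edgeR adjusted p 0.811) and 1.03 ± 0.58 for Kcnj13 (edgeR adjusted p 0.576), and Kcne2 stood at -0.41 once the choroid plexus score was in the model. Of the exon length of Kcnj13, 49.1% also lies in exons of Gigyf2 on the opposite strand, and whether the counting used strand is not known here, so reads of the pair may have been mixed.

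The promoter sequences of this pair, from RefSeq on GRCm38.p6, are shown because the 2 genes varied together, next to that of Kcnip2, which had the most negative log2 fold change of the members. Each runs 5′ to 3′ on the gene's strand from 250 bases before to 50 bases after the start, with every CG dinucleotide in capitals. The Kcne2 window is chr16:92292139-92292438 on the plus strand with 9 CG, the Kcnj13 window is chr1:87394680-87394979 on the minus strand with 5, and the Kcnip2 window is chr19:45816014-45816313 on the minus strand with 18.
Kcne2: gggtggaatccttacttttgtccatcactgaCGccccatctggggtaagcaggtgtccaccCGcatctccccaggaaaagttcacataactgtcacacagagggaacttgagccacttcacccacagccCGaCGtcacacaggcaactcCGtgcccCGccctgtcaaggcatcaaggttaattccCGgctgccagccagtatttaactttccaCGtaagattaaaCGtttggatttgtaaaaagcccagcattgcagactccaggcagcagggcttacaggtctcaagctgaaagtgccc
Kcnj13: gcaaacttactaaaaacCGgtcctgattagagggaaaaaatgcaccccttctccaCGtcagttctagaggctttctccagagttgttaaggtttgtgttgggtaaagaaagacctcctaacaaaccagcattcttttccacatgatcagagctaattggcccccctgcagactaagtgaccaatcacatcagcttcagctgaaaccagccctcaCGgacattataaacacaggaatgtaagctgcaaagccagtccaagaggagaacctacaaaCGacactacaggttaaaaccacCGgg
Kcnip2: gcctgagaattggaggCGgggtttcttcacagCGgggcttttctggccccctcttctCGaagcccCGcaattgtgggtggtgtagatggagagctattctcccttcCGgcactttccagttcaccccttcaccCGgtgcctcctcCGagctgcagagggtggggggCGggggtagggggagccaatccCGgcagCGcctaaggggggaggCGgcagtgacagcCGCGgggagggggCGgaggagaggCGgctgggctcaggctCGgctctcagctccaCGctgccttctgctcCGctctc

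Such windows were matched for 55 of the 74 members, where the most upstream listed start was taken. At least 10 CG were found in 54.5% of them, against 70.0% of the 13726 windows of genes listed in the count tables and 44.0% of all 27025 windows. The members' median was 10 CG, with a range of 1 to 48, against medians of 18 and 7. Kcnrg held 1 CG and Kcnj6 held 30. The search was for the letters CG, which read the same on both strands, and it says nothing of methylation, which these files do not measure.

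Kcnip2, Kcnh5, Kcnc2, Kcna4 and Kcnj2 formed the second set. Kcnip2, a Kcnd auxiliary subunit, had 7.22, 1.44, 2.83 and 9.78 CPM in old and 12.1, 14.9, 7.67 and 6.31 CPM in young libraries. Its log2 fold change of -0.93 ± 0.47 (SE) had an edgeR adjusted p of 0.526, and old 2 and old 3 were lowest. It was -0.38 without old 2, old 3 and young 4, and -1.27 with the granule neuron score in the model. Kcnh5, an ether-à-go-go channel, had 18.5, 2.88, 1.73 and 10.9 CPM in old and 15.0, 22.4, 9.71 and 8.14 CPM in young libraries. Again old 2 and old 3 were far below the other old libraries, and without old 2, old 3 and young 4 its log2 fold change of -0.69 ± 0.61 was 0.04. Kcnc2, the fast-spiking subunit of many brain interneurons, had 44.0, 18.0, 8.02 and 39.6 CPM in old and 37.4, 62.9, 26.2 and 20.1 CPM in young libraries, a log2 fold change of -0.36 ± 0.59, or 0.12 without those 3 libraries. Kcnip2, Kcnh5 and Kcnc2 had their lowest values in exactly those 3 libraries. A rise on leaving them out is therefore built in and tests nothing.

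Kcna4, a transient-current gene of the Kcna family, had 22.6, 10.6, 9.59 and 19.9 CPM in old and 25.1, 27.4, 16.4 and 13.7 CPM in young libraries, with a log2 fold change of -0.37 ± 0.29. Kcnj2, a classical strong inward rectifier, had 35.8, 17.6, 16.2 and 28.1 CPM in old and 25.0, 35.4, 23.7 and 12.6 CPM in young libraries, with 0.04 ± 0.31. In both genes the old group split into 2 high and 2 low libraries, and young 4 was the lowest young library. In all, 15 members had their 3 lowest values exactly in old 2, old 3 and young 4, and 3 had their 3 highest there, where 5.65% of all genes tested had their 3 lowest there and 5.06% their 3 highest. The 15 were Kcnq5, Kcnj10, Kcnk2, Kcnh7, Kcna4, Kcnn3, Kcnab2, Kcna5, Kcnc2, Kcnab3, Kcnj2, Kcnh5, Kcnk13, Kcnk5 and Kcnip2, a list drawn from the values themselves. They include every gene of the second set, which was grouped by its low values in these 3 libraries. Setting the 15 beside the share of all genes is therefore no test.

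Other genes moved with the same 3 libraries. Slc17a6, a glutamate transporter of brainstem and deep nuclear neurons, had 116, 44.6, 30.9 and 89.5 CPM in old and 89.7, 159, 70.7 and 51.6 CPM in young libraries, so that old 2, old 3 and young 4 were lowest and young 2 highest. A list of 16 brainstem genes that includes it, drawn up after the values were seen, summed to 174, 97.3, 81.1 and 141 CPM in old and 149, 219, 118 and 94.2 CPM in young libraries, with its 10 Hox genes at 1 to 15 counts per library in sum. Most of that sum is Slc17a6 and Slc6a5, and its low values follow Slc17a6. Slc6a5, also in the interneuron list, had 39.9, 46.9, 48.2 and 45.5 CPM in old libraries, lowest in old 1. In young libraries Slc6a5 had 49.9, 47.6, 43.4 and 42.3 CPM. Oligodendrocyte markers summed to 4981, 4493, 4045 and 5338 CPM in old and 4528, 6221, 5352 and 3738 CPM in young libraries. They were again lowest in those 3, with old 2 only just below young 1. Summed liver markers were 84.2, 23.6 and 21.2 CPM in these 3 libraries and 0.682 to 9.63 CPM in the others. Their part in the members' values was not tested.

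**Figure D4:**
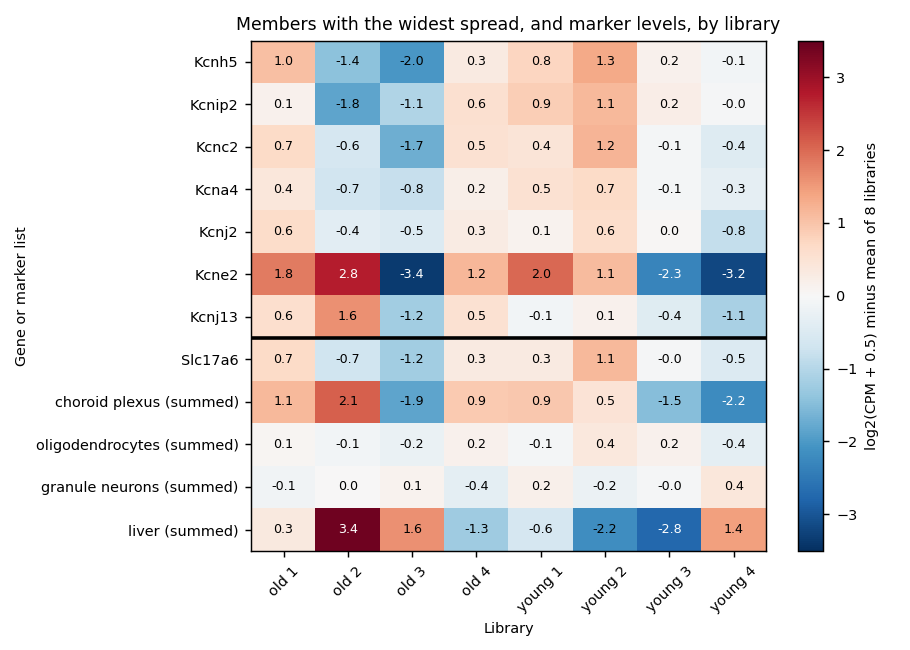
Deviation of log2(CPM + 0.5) from its mean over the 8 libraries for the 7 members of widest spread, Slc17a6 and 4 summed marker lists, one column per library (red high, blue low). Kcne2 and Kcnj13 follow the choroid plexus row, and Kcnh5, Kcnip2, Kcnc2, Kcna4 and Kcnj2 are blue in old 2 and old 3, as Slc17a6 is.

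Females and males were compared in the same model, with 4 animals of each sex. No member passed an adjusted p of 0.05, where 0.0423% of all genes tested did, and the smallest adjusted p of a member was 0.930 (edgeR). At an unadjusted p under 0.05 there were 7 members, against 4.76% of all genes, 4 with negative values, Kcnk9, Kcnf1 and Kcnab3 among them, and 3 with positive values, Kcns2, Kcnn2 and Kcnip4. The log2 fold changes, female minus male, were positive for 24 members and negative for 50, or 32.4% positive against 52.9% of all genes, with a median of -0.08 against 0.01. Without young 4, 34 members were positive and the median was -0.03.

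In 3 members, Kcnk9 and Kcns2 among them, female and male values did not overlap, where 2.25% of all genes tested had that pattern. Kcnk9, the granule cell leak channel, had 231, 213, 208 and 269 CPM in females and 270, 295, 311 and 280 CPM in males. The highest female and the lowest male value nearly touched, and the log2 fold change was -0.33 ± 0.09 with an unadjusted p of 0.00347. Kcns2, a silent subunit that modifies Kcnb channels, had 33.5, 38.3, 42.4 and 30.9 CPM in females and 25.5, 30.3, 30.9 and 27.4 CPM in males. Here the lowest female value, 30.866 CPM in young 4, barely exceeded the highest male value, 30.862 CPM in young 1. On unscaled totals these values were 30.40 and 30.53 CPM, so the separation depends on the scaling. The log2 fold change was 0.34 ± 0.12 with an unadjusted p of 0.0166 (edgeR). Kcnf1, a further silent subunit, averaged 3.29 ± 0.748 CPM in females and 5.87 ± 2.30 CPM in males (SD, n = 4 each), with -0.82 ± 0.31, and its groups overlapped. The adjusted p was 0.930 for Kcnk9, Kcns2 and Kcnf1 (edgeR).

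Whether the age difference itself depended on sex was tested with an interaction term in a model of the 4 age and sex cells of 2 animals each. No member and 0% of all genes tested passed an adjusted p of 0.05 (edgeR), and 5 members (Kcng2, Kcnn1, Kcnh7, Kcnj13 and Kcne2) had an unadjusted p under 0.05, against 2.30% of all genes. DESeq2 was not run on this term. Kcng2, a silent subunit, had the smallest p of the members. It measured 2.88 and 2.37 CPM in old females, 1.87 and 1.54 CPM in young females, 1.12 and 1.57 CPM in old males and 2.64 and 3.92 CPM in young males. Old exceeded young in females and young exceeded old in males, an interaction of 1.90 ± 0.63 on the log2 scale with an unadjusted p of 0.0127. Kcnn1 had 8.78 and 10.9 CPM in old females, 9.71 and 8.14 CPM in young females, 6.10 and 6.76 CPM in old males and 9.62 and 11.4 CPM in young males, with 0.85 ± 0.35 and an unadjusted p of 0.0322. For Kcne2 and Kcnj13, the 3 libraries lowest in choroid plexus markers were 1 old male and both young females.

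Genes that work with these channels were taken from a list of 45 subunit partners, scaffolds, pumps, transporters and G protein subunits, of which 44 were tested. None passed an adjusted p of 0.05 for age, and 12 had an unadjusted p under 0.05 (edgeR), all negative. Over all genes the share was 11.0% in either direction, and 818 of 14191 genes had such a p with a negative value. In all 36 of the 44 were negative and 8 positive, with a median of -0.11. Over all genes 7289 of 14191 were negative, with a median of -0.01. In 5 of the partner genes, among them the 3 below and the calmodulin gene Calm3, every old value lay below every young value, where 3.42% of all genes did. Slc12a5, the chloride and potassium cotransporter of neurons, averaged 391 ± 26.4 CPM in old and 471 ± 26.8 CPM in young libraries (SD, n = 4 each), with -0.27 ± 0.07 (SE) and an edgeR adjusted p of 0.213. Dlg4, the scaffold of synapses and Kcna clusters, averaged 365 ± 17.5 and 434 ± 30.5 CPM, with -0.25 ± 0.08 and an edgeR adjusted p of 0.247. Lgi3, a secreted partner of Kcna channel complexes, averaged 151 ± 6.35 and 174 ± 6.04 CPM, with -0.21 ± 0.07 and an edgeR adjusted p of 0.273. These 3 genes separated the ages without passing the test, and they were among the 4 partner genes named for the smallest p for age.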

How the data were processed

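Total RNA of cerebellum from 8 mice was extracted with Trizol and columns with DNase digestion and made into ribosomal RNA-depleted libraries, per the labels' protocols. The authors deposited raw read counts per gene, without normalization, in 1 table per library, per the file headers and the whole-number values. Tools named in the submitters' processing notes include STAR 2.7.5b, featureCounts and Trimmomatic 0.39, with the builds mm10 and GRCm38. For the counting, neither annotation nor strand setting is stated (not given in the sources used here), and reads of overlapping genes may be shared. Exons of 25 members overlap those of another annotated gene, and exons of 5 members overlap those of a listed gene. In Kcnj3, 31.1% of the exon length lies opposite an unlisted gene, Gm26794.

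Dates replaced 24 gene names in 7 of the files, which were joined by row. Genes were kept by filterByExpr (minimum 10 counts), leaving 14191. The test was edgeR 4.0.16 quasi-likelihood (R 4.3.3) with TMM scaling, robust newer dispersions and age plus sex in the model. Standard errors were derived from the fold change and its F statistic. Exon lengths are from GENCODE M21 (GRCm38). DESeq2 1.42.0, limma 3.58.1 and the other alternatives are in the closing section. Members, gene lists and tests were chosen with earlier results of these data known. Named genes were the 3 highest per length in each subgroup, those with the smallest p for age (10), sex (4) and interaction (2), the 5 members on the inner and 5 genes on the outer side of the CPM minimum, 10 textbook cerebellar channels, the 4 partner genes with the smallest p for age and, added after the values were seen, the 7 of widest spread. A few of these genes are not reported here, nor drawn. No libraries agreed within sampling noise. The design text calls the samples biological replicates.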

Additional observations from a re-analysis of the deposited data

Results flagged for a closer look

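In 1 of 98 groups of 4 libraries examined, 1 value stood apart from the others: Kcnma1, the large-conductance calcium-activated channel, reached 597 CPM in young 3, while the remaining young libraries lay at 481 to 500 CPM. Chance gives such a value in about 1 of 20 groups.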

How the results depend on the processing

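No member passed the age threshold under any alternative run, except Kcnab3 once the granule neuron score was in the model (1 member, -0.56). The count over all genes, 17, was 36 with unadjusted library totals, 125 with DESeq2, 1 with limma-voom, 26 with older edgeR dispersions, 106 with the granule neuron score, 0 with the choroid plexus score, 184 without old 2, old 3 and young 4, and 0 to 63 leaving out single libraries (0 without young 3 or young 4, 63 without old 2, 49 without old 3, 2 without old 1 or young 1, 8 without young 2). With a replicate block it was 1, with 0 members. Same-numbered samples deviated together by correlations of 0.16, -0.22, -0.05 and -0.25, which show no pairing by number but cannot exclude it. For sex the 6 genes were 4 to 46 leaving out single libraries (46 without old 3), and positive members, 24, were 25 to 34, with a median of -0.0747 to -0.0328. Positive members numbered 20, or 13 among pore-type members only, and 17 to 28 leaving out single libraries, with a median of -0.13 to -0.07.

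Signs of log2 fold changes turned under several alternatives, also for Kcne2, Kcnh5 and Kcnc2, whose main values were 1.11, -0.69 and -0.36. With the granule neuron score these were Kcnk3 (0.0362), Kcnq3 (-0.125), Kcnc1 (0.0704), Kcnd2 (0.0469) and Kcnj2 (-0.266), with the choroid plexus score Kcnq3 (-0.0181), Kcng4 (0.0585), Kcne2 (-0.412) and Kcnj2 (-0.145), with unadjusted totals Kcnn3 (0.0317), Kcng4 (0.0368) and Kcns2 (0.00704), with a filter of 50 counts in 4 libraries Kcnn3 (0.0104) and Kcng4 (0.0138), with the replicate block Kcnf1 (0.0432), and without old 2, old 3 and young 4 Kcnn3 (0.0634), Kcnf1 (0.302), Kcnma1 (-0.0715), Kcnh5 (0.0399) and Kcnc2 (0.120). Leaving out single libraries gave ranges across zero for Kcnn3 (-0.13 to 0.12), Kcnq3 (-0.0585 to 0.160), Kcng4 (-0.10 to 0.11), Kcnt1 (-0.0533 to 0.0981), Kcns2 (-0.141 to 0.0539), Kcnf1 (-0.30 to 0.21), Kcng2 (-0.600 to 0.0358), Kcnc1 (-0.234 to 0.000296), Kcnd2 (-0.178 to 0.0210), Kcnma1 (-0.0338 to 0.118), Kcnc2 (-0.747 to 0.0837) and Kcnj2 (-0.16 to 0.30). The cause was not tested. Another 28 named members kept their sign, and 20 of them moved by over 1.5 times in at least 1 case, among them Kcnip2 (-1.61 to -0.61), Kcnh5 (-1.31 to -0.20), Kcnj13 (0.51 to 1.40), Kcne2 (0.34 to 2.04), Kcnk6 (0.28 to 0.72), Kcna4 (-0.64 to -0.09), Kcnk3 (-0.47 to -0.07) and Kcnj10 (-0.33 to -0.09). Of the other values of named genes, 868 kept their sign and side of the threshold.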
